A study of Homo sapiens with 24 samples.

Results

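The RNAs of 10 genes of antigen presentation by MHC class II molecules were followed across 24 messenger RNA libraries of 4 human glioma cell lines. They are the chain genes HLA-DRA, HLA-DRB1, HLA-DPA1, HLA-DPB1, HLA-DQA1 and HLA-DQB1, the peptide-loading genes HLA-DMA and HLA-DMB, the invariant chain gene CD74, and CIITA, the gene of their transcriptional coactivator. The family was chosen by the normalized counts of HLA-DRA and CD74, which were lower after STM2457 in U87 MG cells, so the members' values in that comparison are given as a description without a test. The 6 deposited tables list 22452 to 28669 genes each, and all 10 genes are in every table with a mean normalized count of at least 10, the minimum for a test. STM2457 is an inhibitor of METTL3, the catalytic subunit of the enzyme that places N6-methyladenosine on mRNA.

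The 8 groups of 3 libraries were LN229-R, LN229, U87-R and U87 MG cells, each given 50 µM STM2457 for 96 h or an equal volume of the solvent DMSO. LN229 and U87 MG are long-used lines from human glioblastomas. Each has a derivative, LN229-R or U87-R, that resists the alkylating drug temozolomide. The medium of these derivatives held 50 µM of the drug in both treatment arms, while that of the parental lines held none. A difference between a resistant and a parental line therefore cannot be told apart from the drug in the medium. Medium, serum content, RNA input and library kit differed between the LN229 and U87 families (Watchmaker mRNA kit against a stranded TruSeq mRNA kit). The labels do not say whether replicates were separate cultures, and if they were not, the p-values measure only technical spread. In bulk RNA, fewer cells with a transcript and less of it per cell cannot be told apart.

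MHC class II molecules are pairs of an alpha and a beta chain that carry peptides from endosomes and lysosomes to the cell surface, where CD4+ T cells read them. The invariant chain CD74 escorts new pairs and blocks their groove until cathepsins cut it away, and HLA-DM, the dimer of the HLA-DMA and HLA-DMB products, then exchanges the remaining fragment for a peptide. Transcription of the whole family depends on CIITA, which does not bind DNA itself but docks on the RFX, CREB and NF-Y factors assembled over the X and Y boxes of class II promoters. Outside professional antigen-presenting cells CIITA is known as a gene induced by interferon-gamma, in part through IRF1, and some glioma cells are known to express class II molecules.

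In GENCODE release 29 on GRCh38, 8 of the 10 genes lie in the MHC of chromosome 6. HLA-DRA (ENSG00000204287, plus strand) spans 32439842 to 32445046, HLA-DRB1 (ENSG00000196126, minus strand) 32578769 to 32589848, HLA-DQA1 (ENSG00000196735, plus strand) 32628179 to 32647062 and HLA-DQB1 (ENSG00000179344, minus strand) 32659467 to 32668383. Farther along, HLA-DMB (ENSG00000242574, minus strand) spans 32934629 to 32941070, HLA-DMA (ENSG00000204257, minus strand) 32948613 to 32969094, HLA-DPA1 (ENSG00000231389, minus strand) 33064569 to 33080775 and HLA-DPB1 (ENSG00000223865, plus strand) 33075926 to 33087201. CD74 (ENSG00000019582) lies on the minus strand of chromosome 5 from 150401637 to 150412929, and CIITA (ENSG00000179583) on the plus strand of chromosome 16 from 10866222 to 10943021. HLA genes vary between people and HLA-DRB1 has near-identical copies such as HLA-DRB5, so that reads can be assigned to the wrong gene. HLA-DPA1 and HLA-DPB1 overlap on opposite strands and HLA-DQA1 and HLA-DQB1 have antisense partners. Whether strand was used in counting is not given in the sources used here, so reads of such partners may be mixed.

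Letters that resemble the X and Y boxes can be read in some of the members' promoters. RefSeq promoters (GRCh38.p14) were matched for 8 of the 10 genes, with 9 starts because HLA-DPA1 has 2, and HLA-DRA and CIITA were among the genes not matched. The windows below run from 140 to 31 bases before the RefSeq start, 5′ to 3′ on the gene's strand. Capitals mark 1 pair per window: the letters CNAGNNAC, which resemble the X box, and ATTGG or its complement CCAAT, the core of the Y box bound by NF-Y. Further matches to either motif are left in lower case. The letters were chosen after these sequences were seen.
CIITA's docking partners bind such elements in class II promoters, and CD74 (chr5:150412941-150413050, minus strand) is shown because it lies outside the MHC.
CD74: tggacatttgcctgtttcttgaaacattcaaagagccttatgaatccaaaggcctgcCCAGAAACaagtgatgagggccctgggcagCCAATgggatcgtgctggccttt
HLA-DRB1, HLA-DQA1, HLA-DQB1 and HLA-DMA are shown as the DR, DQ and DM promoters with both elements, at chr6:32589879-32589988 (minus strand), chr6:32637266-32637375 (plus strand), chr6:32666688-32666797 (minus strand) and chr6:32953128-32953237 (minus strand).
HLA-DRB1: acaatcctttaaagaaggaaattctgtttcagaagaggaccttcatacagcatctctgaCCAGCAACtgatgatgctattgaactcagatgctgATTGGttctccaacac
HLA-DQA1: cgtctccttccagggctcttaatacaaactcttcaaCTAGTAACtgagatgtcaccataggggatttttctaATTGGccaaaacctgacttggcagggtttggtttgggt
HLA-DQB1: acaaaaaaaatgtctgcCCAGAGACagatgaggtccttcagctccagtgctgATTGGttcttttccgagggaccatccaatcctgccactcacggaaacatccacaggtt
HLA-DMA: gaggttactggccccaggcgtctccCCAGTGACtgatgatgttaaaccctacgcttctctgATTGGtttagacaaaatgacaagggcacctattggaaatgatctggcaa

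Of the 9 member promoters, 5 held CNAGNNAC on the gene's strand followed by ATTGG on either strand, with 22 to 28 bases between them where 10 to 40 were allowed. The same pair was found in 0.493% of 35116 RefSeq promoters in this window and in 1.11% over the whole length of the promoter entries. The letters were chosen after the member sequences were seen, so this comparison is a description and not a test. ATTGG on either strand alone was in 6 of the 9 member promoters and in 20.0% of all promoters in this window, and CNAGNNAC alone in 15.7% of all promoters. The windows of HLA-DQA1, HLA-DQB1 and HLA-DMA, and that of HLA-DPA1 at chr6:33073680-33073789, lie inside longer GENCODE models of those genes. The other HLA-DPA1 window, chr6:33080779-33080888, lies inside the span of HLA-DPB1. A match is a description of letters and not a site, and the promoters of HLA-DMB, HLA-DPA1 and HLA-DPB1, which did not hold the pair, say nothing about factor binding.

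Normalized counts summed to 24101385 to 28716587 per library in the LN229 family and to 21232924 to 25349361 in the U87 family, and the lowest correlation between replicates of a group was 0.966. Of 10 genes that mark glioma lines, 9 to 10 reached 10 normalized counts in LN229 groups and 7 to 8 in U87 groups. Several markers of microglia, B cells, T cells and dendritic cells were absent. AIF1 and TYROBP of microglia, MS4A1 and BLNK of B cells, CD3D and CD3E of T cells, and CD1C, FLT3, CLEC9A and FCER1A of dendritic cells were at 0 or not listed in all groups. The summed level of 10 microglia and macrophage markers was 5.2 to 59.8 in LN229 libraries and 122.2 to 257.6 in U87 libraries, where CSF1R was the only one above 10. In LN229 after STM2457 the microglia and macrophage markers CSF1R, CD14 and ITGAM reached a mean of 10, and CD14 did in LN229 given DMSO in the same table. The 6 B cell markers summed to at most 35.7 in any library. CD79B among them reached a mean of 10 after STM2457 in all 4 lines and in no DMSO group. Among 6 dendritic cell markers, ITGAX and XCR1 reached 10 normalized counts in U87 lines, with sums of 2430 to 3420 after STM2457 against 1643 to 2186 in DMSO in U87 MG, and 1890 to 2229 against 647 to 1358 in U87-R. Of 5 T cell markers, CD7 reached 10 in LN229 lines and CD2 in U87 MG given DMSO. Sums of the 5 in LN229 were 434.8 to 1029 after STM2457 against 78.0 to 93.3 in DMSO. In LN229-R they were 284 to 691 against 41.3 to 85.2. ITGAX rose after STM2457 in LN229 (2.40), U87-R (1.13) and U87 MG (0.61), and in LN229-R it was below the minimum for a test.

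Other marker lists also moved with STM2457. The 5 endothelial markers summed to 170.8 to 193.2 after STM2457 against 56.3 to 105.6 in DMSO in LN229-R and to 226.7 to 263.0 against 72.3 to 78.7 in LN229, where 1 of 2 and 3 of 4 tested rose and none fell. In U87-R and U87 MG their sums overlapped between treatments and none passed. Of the glioma-line markers, 1 rose and 3 fell of 10 tested in LN229-R, 2 rose and 6 fell of 10 in LN229, 2 of 7 fell in U87-R and 3 of 8 in U87 MG. Their sums were lower after STM2457 without overlap in all 4 lines, for example 324683 to 346846 against 525579 to 700862 in U87 MG. For comparison, 21.5% of all genes tested rose and 17.1% fell in LN229-R, and 26.2% and 23.6% in LN229. The shares were 8.46% and 6.2% in U87-R and 7.86% and 5.72% in U87 MG. The part of the marker genes in the results was not tested.

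LN229-R and LN229 control libraries did not carry the same names in all tables, which touches several results. Each DMSO library stands in the resistant-against-parental table and in a STM2457 table. In LN229 cells, none of 6 columns of the resistance table was closest to its like-named column, and all 6 were closest to the same-numbered library under the other line's name (SD of the log2 ratio across genes 0.0579 to 0.0619, against 0.346 to 0.406 for the like-named library). In U87 cells all 6 were closest to their like-named library (0.0582 to 0.06). HLA-DQA1 shows the conflict: the libraries called LN229-R DMSO had 1422, 1708 and 1533 normalized counts in the resistance table and 552, 802 and 580 in the STM2457 table. Those called LN229 DMSO had 584, 843 and 611 in the resistance table and 1224, 1475 and 1322 in the STM2457 table.

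**Figure D1:**
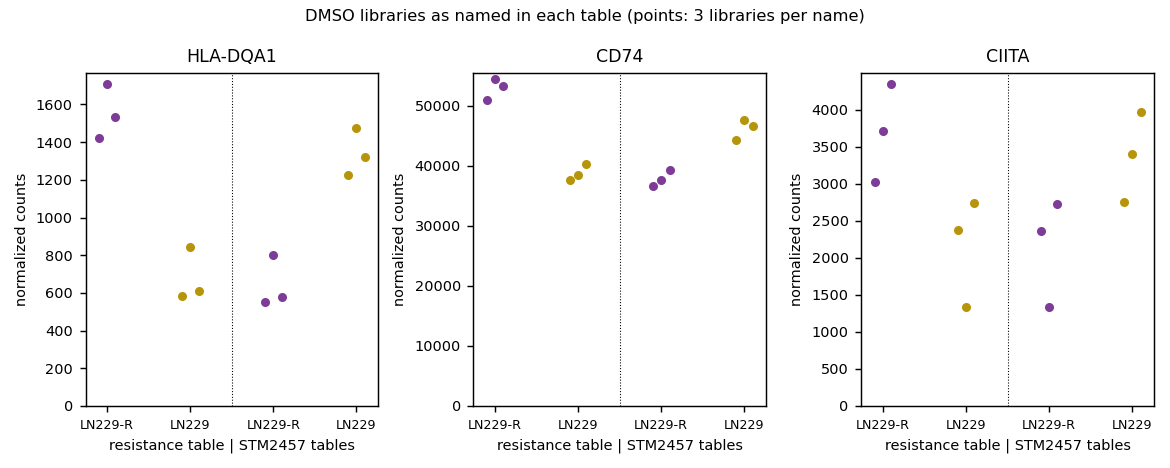
Normalized counts of HLA-DQA1, CD74 and CIITA in the LN229-R and LN229 libraries given DMSO, as named in the resistance table (left of the dotted line) and in the STM2457 tables (right), with 1 point per library. The higher of the 2 triplets carries the name LN229-R on the left and LN229 on the right; for HLA-DQA1 the higher triplets span 1422 to 1708 and 1224 to 1475.

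In U87 MG, the comparison that chose the genes, every chain gene of DR, DP and DQ, CD74 and CIITA was lower in each of 3 libraries with STM2457 than in each of 3 with DMSO. CIITA had 745, 529 and 822 normalized counts after STM2457 and 1806, 2237 and 2482 in DMSO. HLA-DRA, the invariable alpha chain of DR, had 875, 848 and 988 against 2842, 2586 and 2890. CD74 had 4601, 3498 and 4115 against 13397, 11109 and 11895. All 3 genes were about equally reduced, with log2 changes of -1.65 (SE 0.18), -1.62 (SE 0.10) and -1.58 (SE 0.12). HLA-DQA1, the alpha chain of DQ, had 150, 159 and 212 against 448, 453 and 674. The remaining chains had log2 changes of -1.23 (SE 0.18) for HLA-DQB1, -1.19 (SE 0.13) for HLA-DPB1, -1.06 (SE 0.12) for HLA-DRB1 and -0.87 (SE 0.10) for HLA-DPA1.

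The HLA-DM genes stood apart from the rest of the family in U87 MG. HLA-DMA had 455, 314 and 417 normalized counts after STM2457 and 529, 480 and 562 in DMSO, without overlap and with a log2 change of -0.42 (SE 0.16). HLA-DMB had 219, 179 and 174 against 216, 180 and 276, which overlap, with a log2 change of -0.22 (SE 0.20). In all, 9 of 10 members were lower without overlap, where 16.5% of all genes tested were, and their median log2 change was -1.21 against -0.0121 over all genes. These shares describe a comparison that chose the members. Over all 16407 genes 13.6% passed the test, 7.86% higher and 5.72% lower (1289 and 939 genes, or 1662 and 760 with libraries scaled to equal totals).

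**Figure D2:**
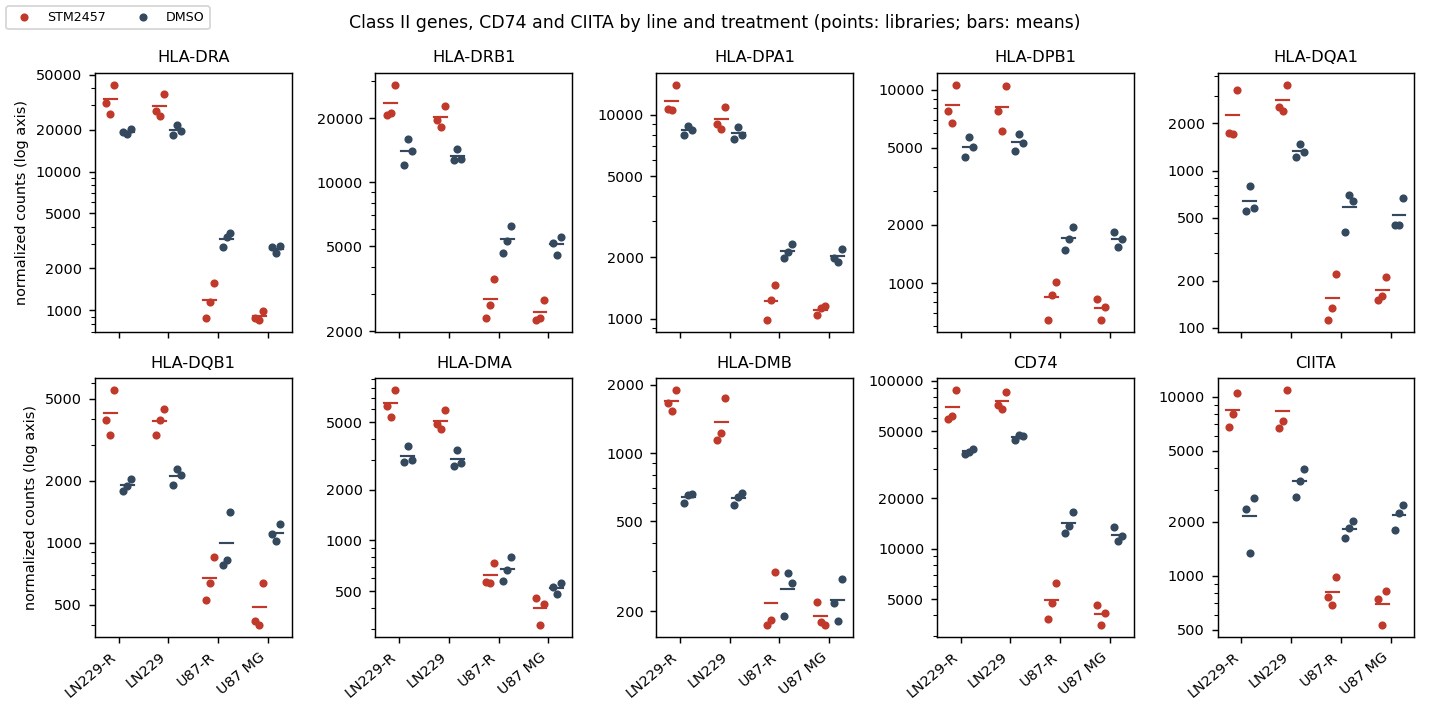
Normalized counts on log axes of the 10 genes in LN229-R, LN229, U87-R and U87 MG cells, with STM2457 libraries left of DMSO libraries; points are single libraries and bars are means of 3. STM2457 points lie above DMSO points in the LN229 lines for nearly all genes and below them in the U87 lines, except for HLA-DMB, and in U87-R also HLA-DMA and HLA-DQB1, where they overlap. Each line's table was normalized separately.

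In U87-R, 7 of 10 members fell after STM2457, against 6.2% of 16185 genes tested (limma, Benjamini-Hochberg adjusted p under 0.05). The choice used U87 MG values only, but earlier results of these data were known when it was made. Over all genes 14.7% (2373 genes) passed in either direction, and 4796 genes passed with the replicate number as a block. CIITA had 764, 685 and 988 normalized counts after STM2457 and 1615, 1850 and 2022 in DMSO, and fell by 1.18 on the log2 scale (SE 0.15, limma adjusted p = 0.0024). HLA-DRA had 872, 1146 and 1559 against 2850, 3378 and 3614 and fell by 1.49 (SE 0.20, limma adjusted p = 0.0024). CD74 had 3817, 4722 and 6209 against 12378, 13716 and 16564 and fell by 1.55 (SE 0.18, limma adjusted p = 0.0015). Every library with STM2457 was below every DMSO library for these genes, and for 7 members in all, as for 16.9% of genes tested.

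Among the other chain genes in U87-R, HLA-DQA1 had the largest change, with 112, 134 and 219 normalized counts after STM2457 against 410, 699 and 642 in DMSO. It fell by 1.93 on the log2 scale (SE 0.28, limma adjusted p = 0.0035). HLA-DPB1 fell by 1.03 (SE 0.18), HLA-DRB1 by 0.95 (SE 0.17) and HLA-DPA1 by 0.82 (SE 0.15), with limma adjusted p-values of 0.0069, 0.0078 and 0.0089. HLA-DQB1, the partner of HLA-DQA1, had 529, 636 and 852 against 777, 828 and 1406, which overlap, and missed the threshold with -0.55 (SE 0.25, limma adjusted p = 0.17). Like-numbered libraries of this table deviated together, and with the replicate number as a block HLA-DQB1 passed (adjusted p = 0.0054), for 8 of 10.

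Neither HLA-DM gene passed in U87-R. HLA-DMA had 570, 556 and 739 normalized counts after STM2457 against 575, 665 and 800 in DMSO (log2 change -0.13, 95% interval -0.50 to 0.25, limma adjusted p = 0.65). HLA-DMB had 173, 183 and 298 against 191, 295 and 266 (log2 change -0.22, 95% interval -0.79 to 0.34, limma adjusted p = 0.59). Both sets of libraries overlapped. The median over the 10 members was -0.99, and over all genes -0.00496. Replicate 3 with STM2457 was the highest of its group for all 10 members, and 7 members passed in every fit that left out 1 library.

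In LN229 the direction was the opposite: 9 of 10 members rose after STM2457 and none fell. This stands against a wide response, since 26.2% of 17107 genes tested rose and 49.7% changed. CIITA had 6699, 7333 and 10879 normalized counts after STM2457 and 2755, 3400 and 3968 in DMSO, and rose by 1.28 on the log2 scale (SE 0.19, limma adjusted p = 0.0010). HLA-DMB had 1140, 1232 and 1745 against 587, 639 and 663 and rose by 1.10 (SE 0.16, limma adjusted p = 0.00075). HLA-DQA1 had 2538, 2391 and 3510 against 1224, 1475 and 1322 and rose by 1.05 (SE 0.15, limma adjusted p = 0.00072).

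CD74 and HLA-DRA, which had the highest normalized counts of the family in LN229, rose less than CIITA, HLA-DMB and HLA-DQA1. HLA-DPA1, with lower counts, changed less than either. HLA-DRA had 27427, 25296 and 36003 normalized counts after STM2457 against 18387, 21795 and 19664 in DMSO, a log2 change of 0.55 (SE 0.15, limma adjusted p = 0.014). CD74 had 71882, 68107 and 85755 against 44400, 47703 and 46619, a change of 0.70 (SE 0.13, limma adjusted p = 0.0030). Neither gene's groups overlapped, and 9 members in all were higher without overlap, as were 30.7% of genes tested. HLA-DQB1 rose by 0.88 (SE 0.12), HLA-DMA by 0.76 (SE 0.12), HLA-DRB1 by 0.59 (SE 0.11) and HLA-DPB1 by 0.58 (SE 0.18). HLA-DPA1, with 9048, 8538 and 10967 against 7608, 8725 and 7988, overlapped and did not pass (0.23, SE 0.11, limma adjusted p = 0.12). The median of the 10 members was 0.73 and that of all genes -0.00305.

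Single libraries decided 3 of the smaller calls in LN229. HLA-DPB1 missed the threshold without STM2457 replicate 1 or 3 or without DMSO replicate 1 or 3 (limma adjusted p = 0.056 to 0.095), and HLA-DRA without DMSO replicate 1 or 3 (0.061 and 0.051). HLA-DPA1 passed without STM2457 replicate 2 (0.034). Between 7 and 10 members passed over the fits without 1 library, where 6591 to 8621 of all genes did, against 8506 with all libraries.

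In LN229-R all 10 members rose after STM2457, against 21.5% of 17063 genes tested (38.6% changed in either direction). Every library with STM2457 was above every DMSO library for all 10, as for 27.5% of genes tested. CIITA had 6788, 7999 and 10541 normalized counts after STM2457 and 2364, 1333 and 2732 in DMSO, a 4.05-fold change on the scale of the value plus 1 (log2 change 2.02, SE 0.27, limma adjusted p = 0.0011). HLA-DQA1 had 1744, 1716 and 3276 against 552, 802 and 580 (log2 change 1.75, SE 0.26, limma adjusted p = 0.0018). HLA-DMB had 1664, 1534 and 1898 against 602, 653 and 660 (log2 change 1.41, SE 0.12, limma adjusted p = 0.00014).

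HLA-DQB1 rose by 1.13 (SE 0.18), HLA-DMA by 1.02 (SE 0.16) and CD74 by 0.86 (SE 0.21) in LN229-R. CD74 had 59457, 61887 and 87934 normalized counts after STM2457 against 36700, 37665 and 39395 in DMSO. HLA-DRA had 31204, 26079 and 42097 against 19308, 18608 and 20197 and rose by 0.75 (SE 0.19, limma adjusted p = 0.018). HLA-DRB1, HLA-DPB1 and HLA-DPA1 rose by 0.74 (SE 0.18), 0.70 (SE 0.18) and 0.47 (SE 0.14). The median of the 10 was 0.938 against -0.0216 over all genes. Replicate 3 with STM2457 was again the highest for all 10 members, as it was in LN229. Without it 8 members passed, with HLA-DRA (limma adjusted p = 0.052) and HLA-DPA1 (0.10) lost, and without DMSO replicate 1 only 5 passed, with HLA-DRA, HLA-DRB1, HLA-DPA1, HLA-DPB1 and CD74 lost (0.057 to 0.098). Without DMSO replicate 3, HLA-DRA, HLA-DPA1 and HLA-DPB1 were lost (0.054 to 0.093). Of all genes, 4703 passed without STM2457 replicate 3, 4861 without DMSO replicate 1 and 4364 without DMSO replicate 3, against 6591 with all libraries.

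**Figure D3:**
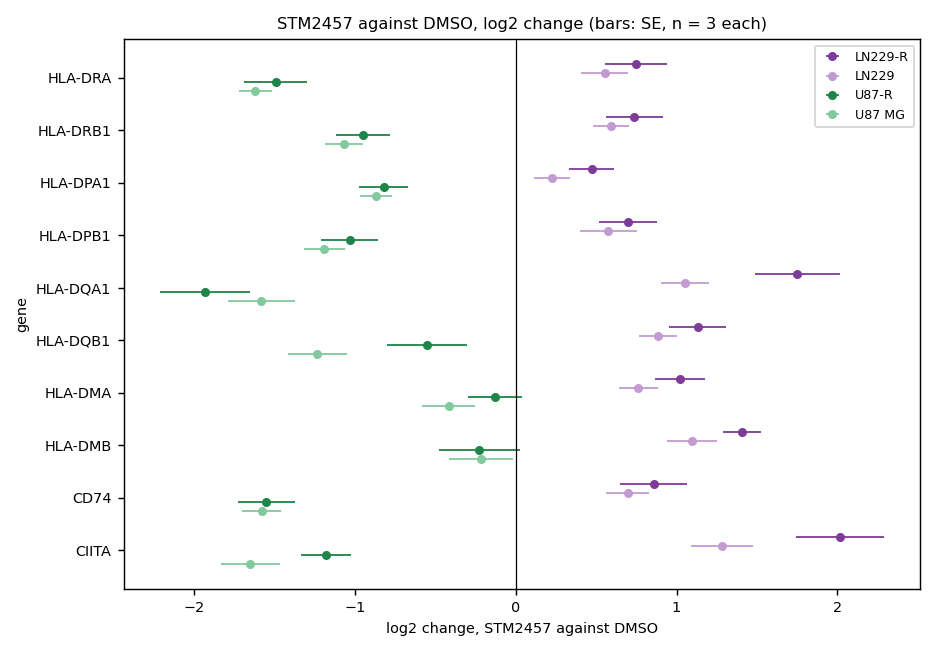
Log2 change of each of the 10 genes, STM2457 against DMSO, in LN229-R, LN229, U87-R and U87 MG, with bars of 1 SE and 3 libraries per group. All points of the LN229 lines lie above 0, between 0.23 and 2.02, and all points of the U87 lines below it, between -1.93 and -0.13; the U87 MG values chose the genes.

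The conflict of names touches which LN229 line each drug change belongs to. When each line's STM2457 libraries were set against the DMSO libraries of the other line, across tables that were normalized separately and without a test, all 10 members stayed higher in both lines. The changes were then 0.17 to 2.12 in LN229 and 0.53 to 1.43 in LN229-R, with medians of 0.835 and 0.755. HLA-DQA1 moved most, to 2.12 in LN229 and 0.68 in LN229-R, and CIITA to 1.98 and 1.31. Across 12122 genes with a mean of at least 100, the difference LN229-R minus LN229 in STM2457 libraries had r = 0.687 with the same difference in DMSO libraries of the STM2457 tables, which share no library. Genes are not independent replicates, and this r describes these tables only.

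No member passed the test of a difference in STM2457 effect between LN229-R and LN229 with the libraries as named in the STM2457 tables. In a joint fit of both tables, 1 of 17072 genes passed (0.00586%, limma), and no member had an unadjusted p under 0.05. CIITA differed by 0.74 (95% interval -0.09 to 1.56) and HLA-DQA1 by 0.70 (-0.03 to 1.43). The other 8 members differed by 0.12 to 0.31, and the median of the 10 was 0.247. With the DMSO libraries of the other line the order turned for HLA-DQA1 (0.68 in LN229-R against 2.12 in LN229), CIITA (1.31 against 1.98), CD74 (0.57 against 0.98), HLA-DQB1 (0.99 against 1.03) and HLA-DPB1 (0.63 against 0.65). These intervals leave room for differences of more than 1 log2 unit in CIITA and HLA-DQA1.

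The effect of STM2457 differed between LN229 and U87-R for every member. In the joint fit of LN229 and U87-R, all 10 members passed with higher changes in LN229, against 9.49% of 15986 genes (1517 higher and 995 lower, or 1278 and 1390 with equal totals). CD74 changed by 0.70 in LN229 and by -1.55 in U87-R, a difference of 2.25 (SE 0.23, limma adjusted p = 6.0e-05). CIITA differed by 2.46 (SE 0.27, limma adjusted p = 8.6e-05), HLA-DRA by 2.05 (SE 0.26, 0.00025) and HLA-DQA1 by 2.98 (SE 0.35, 0.00013). The smallest differences were those of HLA-DMA at 0.89 (SE 0.21, 0.013) and HLA-DPA1 at 1.05 (SE 0.19, 0.0032).

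Between LN229-R and U87-R, both with temozolomide in the medium, all 10 members again differed, against 8.52% of 15848 genes. HLA-DQA1 differed by 3.68 (SE 0.43), CIITA by 3.20 (SE 0.34), CD74 by 2.41 (SE 0.27) and HLA-DRA by 2.24 (SE 0.29), with limma adjusted p-values of 0.00013, 7.2e-05, 0.00012 and 0.00026. HLA-DMA differed least, by 1.15 (SE 0.24, limma adjusted p = 0.0066). These 2 tests were added after the changes in each line were known, and they share the U87-R libraries. Kit, RNA input and medium differ with the background, and between LN229 and U87-R so do resistance and the temozolomide in the medium, so that their part and that of the cells cannot be told apart. Whether STM2457 acted differently on the members in U87-R and U87 MG was not tested, because the U87 MG values chose them.

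Control levels were further apart between backgrounds for some members than for others, in tables that were normalized separately and are not tested against each other. In DMSO, as named in the STM2457 tables, HLA-DRA had 18608 to 20197 normalized counts in LN229-R, 18387 to 21795 in LN229 and 2586 to 2890 in U87 MG. CIITA had 1333 to 2732 in LN229-R, 2755 to 3968 in LN229 and 1806 to 2482 in U87 MG, and HLA-DQA1 had 552 to 802 in LN229-R, 1224 to 1475 in LN229 and 448 to 674 in U87 MG. The libraries named LN229-R thus overlapped U87 MG for CIITA and HLA-DQA1 and lay far above it for HLA-DRA. In U87-R given DMSO, HLA-DRA had 2850 to 3614, CIITA 1615 to 2022 and HLA-DQA1 410 to 699. After STM2457, CIITA had 6699 to 10879 in LN229, 685 to 988 in U87-R and 529 to 822 in U87 MG. The U87 MG values are those of the comparison that chose the genes, and library kits differed between the backgrounds.

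Resistance to temozolomide left the family without a call in U87 cells. None of the 10 members passed between U87-R and U87 MG in DMSO, where 4.27% of 16306 genes did (3.13% higher and 1.15% lower, limma), and 3 members had an unadjusted p under 0.05. HLA-DMA had 580, 674 and 804 normalized counts in U87-R and 474, 430 and 501 in U87 MG, which do not overlap (log2 change 0.54, SE 0.15, limma adjusted p = 0.087). HLA-DRA had 2884, 3435 and 3644 against 2631, 2390 and 2659 (0.37, SE 0.11, limma adjusted p = 0.12). CD74 had 12389, 13793 and 16518 against 12280, 10164 and 10836 (0.35, SE 0.13, limma adjusted p = 0.19). All 3 groups of U87-R values lay above those of U87 MG, as for 12.6% of all genes.

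The remaining members overlapped between U87-R and U87 MG. CIITA was the only member with a lower mean in U87-R, with 1572, 1810 and 1961 normalized counts against 1635, 2022 and 2234 in U87 MG (log2 change -0.13, 95% interval -0.45 to 0.18, limma adjusted p = 0.70). HLA-DQA1 had the widest interval of the family, -0.28 to 0.78 around 0.25. The median of the 10 was 0.231 against -0.0137 over all genes. These U87 MG controls are also in the comparison that chose the genes.

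In LN229 cells 2 of 10 members were higher in the libraries labelled LN229-R of the resistance table, against 5.6% of 17136 genes. Over all genes 9.25% passed, 5.6% higher and 3.65% lower (959 and 626 genes, 1189 and 472 with equal totals, or 1426 and 1174 with the replicate block). HLA-DQA1 rose by 1.21 (SE 0.15, limma adjusted p = 0.0027) on the values given above. CD74 had 50945, 54560 and 53397 normalized counts in LN229-R and 37649, 38449 and 40289 in LN229, a change of 0.45 (SE 0.10, limma adjusted p = 0.027). By the names of the STM2457 tables the same libraries carry the opposite labels, and both differences turn round.

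CIITA had 3022, 3718 and 4346 normalized counts in the libraries labelled LN229-R against 2378, 1335 and 2740 in those labelled LN229, without overlap, but missed the threshold (0.83, SE 0.26, limma adjusted p = 0.087). HLA-DQB1 also missed it (0.31, SE 0.10, 0.091). Like-numbered libraries deviated together in this table, and with the replicate number as a block CIITA (adjusted p = 0.038) and HLA-DQB1 (0.038) passed, for 4 of 10. In all, 5 members were higher without overlap, as for 16.3% of genes. CD74 lost its call without any 1 of the LN229-R libraries or without LN229 replicate 1 or 3 (limma adjusted p = 0.063 to 0.14), which left 1 member, HLA-DQA1. Without LN229 replicate 2, the lowest for CIITA, both CIITA (0.035) and HLA-DPB1 (0.046) passed, for 4 members. The calls over all genes moved likewise. Without LN229 replicate 2, 3262 of 17140 genes passed, against 1585 with all libraries and 534 to 1039 in the fits in which CD74 lost its call.

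**Figure D4:**
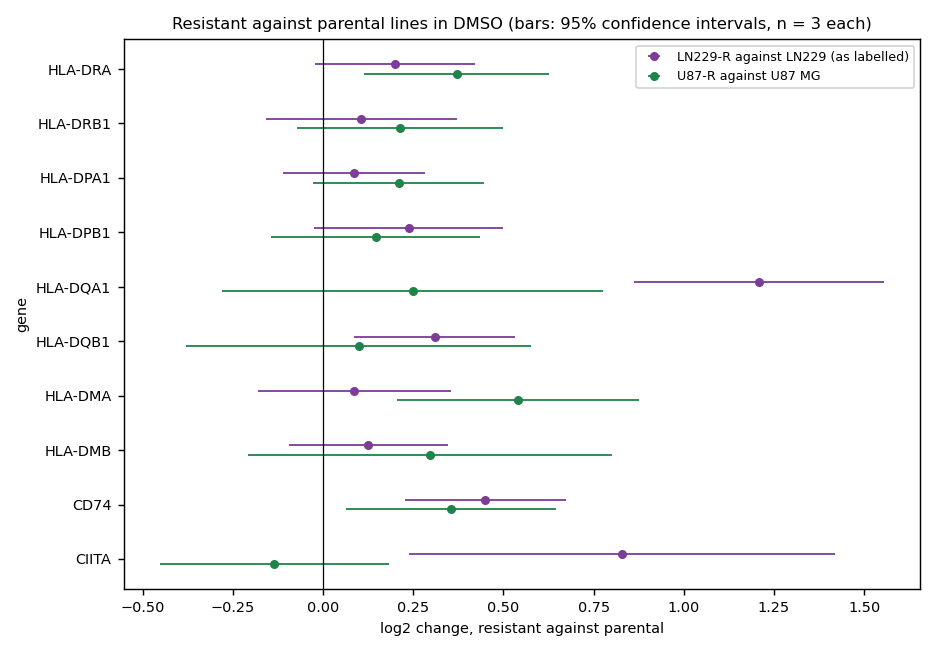
Log2 change of each of the 10 genes in DMSO, LN229-R against LN229 as labelled in the resistance table and U87-R against U87 MG, with 95% confidence intervals and 3 libraries per group. HLA-DQA1 in LN229 cells, at 1.21, stands apart from the other genes; most intervals of the U87 comparison cross 0.

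Other genes of the class II pathway were taken from lists of known members. Of the 7 other class II genes on the lists, 5 had a gene ID, and HLA-DRB3 and HLA-DRB4 had none and were not analysed. Above the minimum were 3 in LN229 cells and 2 in U87 cells, where HLA-DOB was below it. HLA-DRB5, the beta chain closest to HLA-DRB1, moved like it: it rose by 0.77 (SE 0.16) in LN229-R and 0.60 (SE 0.10) in LN229, and fell by 0.79 (SE 0.16) in U87-R. In U87 MG its log2 change was -0.81 (SE 0.09). HLA-DOA, the alpha chain of HLA-DO, an inhibitor of HLA-DM, had 40.5, 32.1 and 48.6 normalized counts after STM2457 in U87-R against 141, 220 and 288 in DMSO and fell by 2.35 (SE 0.30, limma adjusted p = 0.0021). In U87 MG it had 10.1, 21.3 and 10.7 against 134, 150 and 170, a fall by 3.41 (SE 0.34, limma adjusted p = 0.0013), larger than that of any of the 10 members. In LN229-R and LN229 it did not pass, with 0.50 and 0.00. HLA-DOB, the beta chain of HLA-DO, rose in LN229-R (0.81, SE 0.22). Over the 84 listed genes of the pathway besides the members, 29 rose and 7 fell of 70 tested in LN229-R, 29 and 11 of 71 in LN229, 3 and 13 of 68 in U87-R, and 3 and 16 of 70 in U87 MG. With the replicate block 6 rose and 25 fell in U87-R, where 2545 and 2251 of all 16185 genes did. Without the block, the shares of all genes tested that rose and fell were 21.5% and 17.1% in LN229-R and 26.2% and 23.6% in LN229. They were 8.46% and 6.2% in U87-R and 7.86% and 5.72% in U87 MG.

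**Figure D5:**
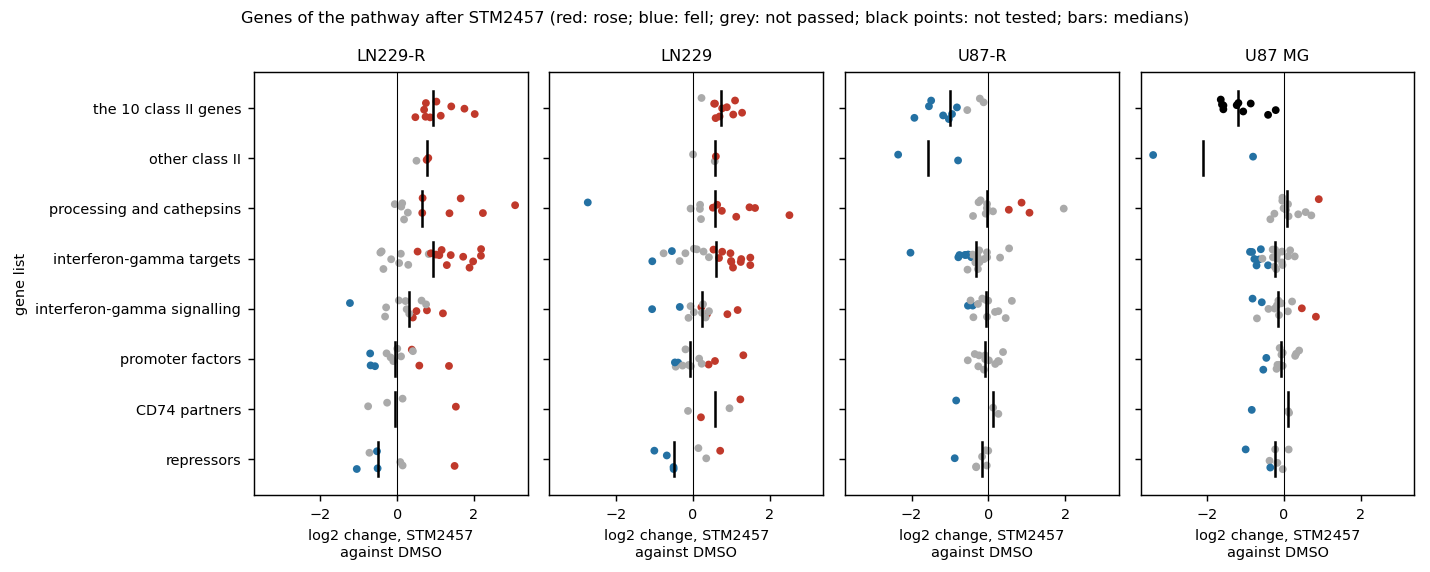
Log2 change, STM2457 against DMSO, of the genes of each list that were tested in LN229-R, LN229, U87-R and U87 MG; red points rose, blue points fell, grey points did not pass, black points chose the family and were not tested, and vertical bars are list medians. The interferon-gamma targets have a median of 0.943 in LN229-R, 0.609 in LN229, -0.323 in U87-R and -0.245 in U87 MG.

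Of the 12 promoter factors and coactivators that work with CIITA, few moved with the family. RFX5, the DNA-binding subunit of RFX, rose in LN229-R (0.38, SE 0.12) and LN229 (0.41, SE 0.08). In U87-R it had -0.36 (SE 0.11, limma adjusted p = 0.065, or 0.017 with the replicate block), and it fell in U87 MG (-0.54, SE 0.13, limma adjusted p = 0.024). RFXAP, another RFX subunit, did not pass in any line, with changes between 0.23 and 0.41. RFXANK, the ankyrin subunit, fell in LN229-R (-0.69, SE 0.18) and had -0.45, -0.12 and -0.07 in LN229, U87-R and U87 MG. The acetyltransferase gene KAT2B rose by 1.35 (SE 0.12) in LN229-R and 1.31 (SE 0.13) in LN229 and fell by 0.46 (SE 0.13) in U87 MG. EP300, another acetyltransferase, rose by 0.57 (SE 0.12) and 0.58 (SE 0.11) in LN229-R and LN229, where NFYA, a subunit of NF-Y, fell by 0.71 (SE 0.14) and 0.38 (SE 0.09) and the remodeller SMARCA4 by 0.58 (SE 0.11) and 0.47 (SE 0.11). In all, 3 of 12 rose and 3 fell in LN229-R, 3 rose and 2 fell in LN229, none passed in U87-R (1 rose and 2 fell with the replicate block), and 2 fell in U87 MG. For comparison, 21.5% of all genes tested rose and 17.1% fell in LN229-R, and 26.2% and 23.6% in LN229. The shares were 8.46% and 6.2% in U87-R (2545 and 2251 of 16185 genes with the block) and 7.86% and 5.72% in U87 MG.

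The route from interferon-gamma to CIITA moved in mixed directions. IFNGR2, the signalling chain of the receptor, fell in all 4 lines, by 1.23 (SE 0.10) in LN229-R, 1.06 (SE 0.09) in LN229, 0.53 (SE 0.13) in U87-R and 0.58 (SE 0.11) in U87 MG. IFNGR1, the ligand-binding chain, rose in LN229-R (0.77, SE 0.17), LN229 (0.90, SE 0.08) and U87 MG (0.83, SE 0.16) and had 0.61 (SE 0.23, limma adjusted p = 0.11) in U87-R, where it passed with the replicate block (0.0076). The receptor chains thus changed in opposite directions in LN229-R, LN229 and U87 MG. IRF1, which acts on the CIITA promoter, fell by 0.41 (SE 0.12, limma adjusted p = 0.049) in U87-R and 0.82 (SE 0.15, limma adjusted p = 0.0093) in U87 MG and had 0.04 and 0.03 in LN229-R and LN229.

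The kinase genes of that route changed little. JAK1 rose in LN229 (0.22, SE 0.07) and had 0.22 (SE 0.11), 0.17 (SE 0.08) and 0.10 (SE 0.10) in LN229-R, U87-R and U87 MG. JAK2 rose in LN229-R (0.50, SE 0.14) and had 0.24, -0.27 and -0.25 in LN229, U87-R and U87 MG, none of which passed. SOCS3, a feedback inhibitor of cytokine signalling, rose by 1.19 (SE 0.14) in LN229-R and 1.17 (SE 0.13) in LN229. IRF2, which shares DNA sites with IRF1, rose in LN229-R (0.41, SE 0.11), LN229 (0.37, SE 0.12) and U87 MG (0.46, SE 0.13). PTPN2, a phosphatase of the route, fell in LN229 (-0.34, SE 0.10). Of 13 genes on this list, 4 rose and 1 fell in LN229-R, 4 rose and 2 fell in LN229, 2 fell in U87-R (2 rose and 3 fell with the replicate block), and 2 rose and 2 fell in U87 MG. Among all genes tested 21.5% rose and 17.1% fell in LN229-R, and 26.2% and 23.6% in LN229. The shares were 8.46% and 6.2% in U87-R (2545 and 2251 of 16185 genes with the block) and 7.86% and 5.72% in U87 MG.

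Of 7 genes known as repressors of CIITA or parts of repressive chromatin complexes, EZH2, the histone methyltransferase of Polycomb, fell in every line. It fell by 1.05 (SE 0.22) in LN229-R, 1.00 (SE 0.15) in LN229, 0.88 (SE 0.13) in U87-R and 1.00 (SE 0.11) in U87 MG. It fell both in lines in which CIITA rose and in lines in which CIITA was lower. MYC rose in LN229-R (1.49, SE 0.18) and PRDM1, a repressor of CIITA in plasma cells, in LN229 (0.71, SE 0.21). HDAC2 fell by 0.51 (SE 0.15) and 0.50 (SE 0.10) in LN229-R and LN229, and SIN3A by 0.53 (SE 0.11) and 0.50 (SE 0.08). DNMT1 fell in LN229 (-0.68, SE 0.11), with -0.72 in LN229-R (limma adjusted p = 0.086, or 0.0035 with the replicate block), and HDAC1 fell in U87 MG (-0.36, SE 0.10).

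Proteases that cut the invariant chain rose in lines of either direction. CTSS, cathepsin S, the protease known for the last cut of CD74, rose by 3.07 (SE 0.16) in LN229-R, 2.51 (SE 0.18) in LN229, 0.86 (SE 0.15) in U87-R and 0.90 (SE 0.11) in U87 MG. CTSL, cathepsin L, rose by 1.36 (SE 0.13) in LN229-R and 1.47 (SE 0.08) in LN229 and had 0.12 (SE 0.15) and 0.05 (SE 0.14) in U87-R and U87 MG. CTSD, cathepsin D, rose in LN229-R (1.65, SE 0.19), LN229 (1.62, SE 0.14) and U87-R (1.07, SE 0.13) and had 0.56 (SE 0.19, limma adjusted p = 0.082) in U87 MG. IFI30, the lysosomal thiol reductase, followed the family more closely, with rises of 2.23 (SE 0.44) in LN229-R and 1.13 (SE 0.23) in LN229, and changes of -0.26 (SE 0.21) and -0.36 (SE 0.15) that did not pass in U87-R and U87 MG.

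MARCHF8, a ligase that directs surface proteins to lysosomes, rose in LN229-R (0.65, SE 0.12), LN229 (0.76, SE 0.11) and U87-R (0.53, SE 0.11), while MARCHF1, the ligase known for removing class II molecules, fell in LN229 (-2.74, SE 0.72). Of the 13 processing genes, 6 rose and none fell in LN229-R (11 tested), 7 rose and 1 fell in LN229 (12 tested), 3 rose and none fell in U87-R (11 tested), and 1 rose and none fell in U87 MG (12 tested). Among all genes tested 21.5% rose and 17.1% fell in LN229-R, and 26.2% and 23.6% in LN229. The shares were 8.46% and 6.2% in U87-R and 7.86% and 5.72% in U87 MG. Between U87-R and U87 MG in DMSO, CTSS fell by 0.59 (SE 0.13, limma adjusted p = 0.041) and LGMN, the asparaginyl endopeptidase legumain, rose by 1.15 (SE 0.19, limma adjusted p = 0.013). In the libraries labelled LN229-R against those labelled LN229, IFI30 rose by 1.71 (SE 0.36), CTSV by 0.99 (SE 0.17) and CTSL by 0.47 (SE 0.08), with the same doubt about direction as for HLA-DQA1.

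CD74 is also the surface receptor of the cytokine MIF, with CD44 as its signalling partner. MIF fell by 0.84 in both U87-R (SE 0.19) and U87 MG (SE 0.13) and had -0.26 (SE 0.13) and -0.13 (SE 0.10) in LN229-R and LN229. CD44 rose by 1.53 (SE 0.16) in LN229-R and 1.24 (SE 0.10) in LN229 and had 0.12 (SE 0.10) and 0.11 (SE 0.14) in U87-R and U87 MG. CXCR4 and CXCR2, 2 other partners of CD74, were below the minimum in all tables.

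Known interferon-gamma targets outside class II, mainly class I presentation genes, moved in the same directions as the family in many cases. Of 20 tested on the list of 26, 12 rose and none fell in LN229-R and 11 rose and 2 fell in LN229. None rose and 7 fell of 20 tested in U87-R, and none rose and 7 fell of 21 in U87 MG. Among all genes tested 21.5% rose and 17.1% fell in LN229-R, and 26.2% and 23.6% in LN229. The shares were 8.46% and 6.2% in U87-R and 7.86% and 5.72% in U87 MG. With the replicate block 14 fell in U87-R, where 2251 of all 16185 genes did. NLRC5, the class I counterpart of CIITA, rose by 2.18 (SE 0.20) in LN229-R and 1.5 (SE 0.27) in LN229 and did not pass in U87-R (-0.03, SE 0.11) or U87 MG (-0.29, SE 0.18). HLA-B rose by 1.98 (SE 0.57) in LN229-R and 1.00 (SE 0.26) in LN229 and fell by 0.78 (SE 0.10) in U87-R and 0.89 (SE 0.10) in U87 MG. HLA-C rose by 1.88 (SE 0.48) in LN229-R and 1.00 (SE 0.25) in LN229 and fell by 0.76 (SE 0.11) in U87-R and 0.83 (SE 0.09) in U87 MG. B2M, the light chain of class I molecules, rose by 1.16 (SE 0.39) and 0.68 (SE 0.18) in LN229-R and LN229 and fell by 0.45 (SE 0.09) and 0.42 (SE 0.09) in U87-R and U87 MG.

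In DMSO, 4 of 20 interferon-gamma targets tested were higher in U87-R than in U87 MG and none was lower, where 3.13% of all genes were higher. PSME1 and PSME2, subunits of the proteasome activator, rose by 0.89 (SE 0.13) and 0.70 (SE 0.12), IRF9 by 0.97 (SE 0.22) and the adhesion receptor ICAM1 by 0.78 (SE 0.15). Among the libraries labelled LN229-R against those labelled LN229, the target HLA-B rose by 1.17 (SE 0.22). MYC of the repressor list rose by 0.99 (SE 0.17) and SOCS3 of the route to CIITA by 0.70 (SE 0.13). All carry the same doubt about direction as HLA-DQA1.

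Some interferon-gamma targets did not follow the drug response of the class II genes. PSMB9, an immunoproteasome subunit, fell in U87-R (-0.59, SE 0.14) and U87 MG (-0.61, SE 0.15) and had 0.09 (SE 0.30) and -0.19 (SE 0.23) in LN229-R and LN229. GBP4, a guanylate-binding protein, fell in LN229 (-1.06, SE 0.27) and U87-R (-2.03, SE 0.49), and PSME2 fell in LN229 (-0.55, SE 0.16). CXCL9, CXCL10, CXCL11 and IDO1 were below the minimum in all tables. HLA-E rose by 1.39 (SE 0.21) in LN229-R and 1.25 (SE 0.11) in LN229. It had -0.24 (SE 0.10) in U87-R, where it passed with the replicate block (adjusted p = 0.019), and -0.30 (SE 0.10) in U87 MG.

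Across the 12 U87-R and U87 MG libraries of the STM2457 tables, HLA-DPA1 (r = 0.992) and CD74 (r = 0.991) followed HLA-DRA most closely among the members, and HLA-DMA (0.598) and HLA-DMB (0.563) least. These r values come from 2 treatments in 2 tables that were normalized separately. The treatment difference makes most of each value, and they are descriptions. The U87 MG libraries among the 12 are those whose HLA-DRA and CD74 values chose the genes. High values between genes that fell there were thus favoured by that choice. Genes other than the members were ranked among 11315 with a mean of at least 100. Most like HLA-DRA were HLA-DRB5, another class II gene (r = 0.988), PRKCA (0.985), PINK1-AS (0.985), UQCC5 (0.985) and KCNMA1 (0.980). Those most like CD74 were HLA-DRB5 (0.991), PRKCA (0.991), ALCAM (0.979), GAMT (0.978) and UQCC5 (0.976).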

How the data were processed

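The authors deposited 6 tables of 6 libraries, each scaled on its own, whose values are a signal (normalized counts). Whole reads could not be recovered, so tests on read counts were not used and the sequencing depth is known only as the summed values. Salmon 1.4.0, STAR 2.7.11a, Trimmomatic 0.39, DESeq2 and the build GRCh38 are named, without order or settings, per the submitters' processing notes.

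A pseudocount of 1 was added before taking log2. Genes averaging 10 or more in a table were fitted there with limma 3.58.1 (R 4.3.3) and a variance trend. Fold changes are on that scale, which understates low genes. A gene passed with a Benjamini-Hochberg adjusted p under 0.05 over all genes tested. Differences between drug effects were tested in joint fits. The fits were tested on simulated data. Tables, correlations and plots used Python 3.11.15 with pandas 2.3.3, numpy 2.4.6 and matplotlib 3.10.9.

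The members, gene lists and tests were chosen with earlier results of these data known. The text names all 10 members, fixed genes of the route to CIITA, up to 6 pathway genes per comparison with the lowest adjusted p, and the 5 genes most like HLA-DRA and CD74, and further listed genes were named after their values were seen. Replicate numbers were taken as pairs where every pair's correlation was over 0.1: LN229-R against LN229 (0.114 to 0.204), STM2457 in U87-R (0.114 to 0.298) and in LN229-R (0.102 to 0.321). The other comparisons had 0.019 to 0.14 (U87-R against U87 MG), 0.039 to 0.186 (STM2457 in U87 MG) and 0.068 to 0.099 (STM2457 in LN229). The labels do not say whether replicate numbers pair libraries. As alternatives, the pseudocount (0.5 or 5), the minimum (none or 50), the scaling (equal upper quartiles or equal totals) and the trend (none) were varied, with the replicate block, an adjusted p under 0.01, exchanged LN229 names and leaving out each library. Some listed genes are not reported here.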

Additional observations from a re-analysis of the deposited data

Results flagged for a closer look

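The response to STM2457 differed between each LN229 line and U87-R for each of the 10 genes by a test of the difference in limma. For LN229 minus U87-R the log2 differences were 2.05 for HLA-DRA, 1.54 for HLA-DRB1, 1.05 for HLA-DPA1, 1.61 for HLA-DPB1, 0.89 for HLA-DMA, 1.32 for HLA-DMB, 2.98 for HLA-DQA1, 1.44 for HLA-DQB1, 2.25 for CD74 and 2.46 for CIITA. For LN229-R minus U87-R they were 2.24 for HLA-DRA, 1.69 for HLA-DRB1, 1.29 for HLA-DPA1, 1.73 for HLA-DPB1, 1.15 for HLA-DMA, 1.63 for HLA-DMB, 3.68 for HLA-DQA1, 1.68 for HLA-DQB1, 2.41 for CD74 and 3.20 for CIITA. Library kit, RNA input and medium also differed between these groups, as did resistance and the temozolomide in the medium between LN229 and U87-R, and these cannot be told apart from the cells.

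Set against U87 MG, 9 members were higher after STM2457 in every library of LN229-R and lower in every library of U87 MG, and 8 members were so in LN229 and U87 MG. This difference was not tested, because the U87 MG values chose the genes.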

How the results depend on the processing

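The log2 changes of the 10 members kept their sign in all 4 STM2457 comparisons and in both tests between backgrounds under every alternative run on the tables. The median change in U87 MG lay between -1.33 and -1.10 when 1 library was left out, and 7 members passed in U87-R and 10 in each test between backgrounds in all such fits. In LN229 7 to 10 members passed, in LN229-R 5 to 10, and in LN229-R against LN229 1 to 4. Of all genes, 6591 to 8621, 4364 to 6425 and 534 to 3262 passed in these fits. At an adjusted p under 0.01, 5 of 10 members passed in LN229-R after STM2457 and 1 of 10 in LN229-R against LN229. Of all genes, 3521 of 17063 and 543 of 17136 did. With the replicate block, 4 members passed in LN229-R against LN229, where 2600 of 17136 genes did. In U87-R against U87 MG 1 member, HLA-DMA, passed with the block (limma adjusted p = 0.044), where 1176 of 16306 genes did. Replicate numbers of that comparison did not meet the rule used for pairs. The block moved no other count of members past 1.5 times. None passed in U87-R against U87 MG or in LN229-R minus LN229 without any 1 library.

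With the names exchanged, 2 members passed in LN229-R against LN229 in the opposite direction, and the changes were -0.20 (HLA-DRA), -0.105 (HLA-DRB1), -0.086 (HLA-DPA1), -0.24 (HLA-DPB1), -0.086 (HLA-DMA), -0.125 (HLA-DMB), -1.21 (HLA-DQA1), -0.31 (HLA-DQB1), -0.45 (CD74) and -0.83 (CIITA). Leaving out single libraries turned the sign of changes near 0 that never passed: HLA-DQB1 in U87-R against U87 MG (-0.17 to 0.26), HLA-DMA in LN229-R against LN229 (-0.006 to 0.182), and in LN229-R minus LN229 HLA-DRB1 (-0.006 to 0.24), HLA-DPB1 (-0.062 to 0.32) and CD74 (-0.018 to 0.265). Scaling moved the median of all genes by less than 0.1. Depth in reads is unknown, and 3 libraries per group limit the precision.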
